A study of Homo sapiens with 9 samples.

Results

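The genes described here are 9 that type I interferon is known to switch on: ISG15, IFI6, IFI27, IFIT1, IFIT2, IFIT3, MX1, OAS1 and IFITM3. They were taken by name from a table of 27421 genes, and each name matched 1 row. The table covers 9 poly(A) RNA libraries of Huh7, an established line of human hepatocellular carcinoma cells. There were 3 libraries labelled shZMAT2-1, 3 labelled shZMAT2-2 and 3 labelled control. The labels name no vector, no hairpin sequence, no time and nothing that the control carried. The study asks whether ZMAT2, a zinc finger protein of the spliceosome, acts on this cancer through splicing. The values are levels of whole genes in FPKM, fragments per kilobase of gene scaled to the fragments of the library, so they compare genes per length. Nothing in the labels ties a replicate to a culture of its own, and p-values therefore speak only of the spread between these libraries.

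Type I interferons are cytokines that cells release after sensing viral nucleic acid. They bind a receptor made of IFNAR1 and IFNAR2, whose kinases JAK1 and TYK2 pass the signal on. STAT2 and IRF9 then enter the nucleus as parts of a complex that binds the interferon-stimulated response element, or ISRE, in the promoters of the genes it switches on. The products act against viruses in different ways, and liver cells are able to make most of them.

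The promoters of the members are shown because this element is what the genes are known to share. RefSeq windows of 300 bases, 250 before and 50 after a start site on GRCh38.p14, were held for 8 of the 9 members, IFIT2 being the exception. An ISRE core was searched on both strands as GAAA, any 2 bases and GAAA, where matches may overlap. It occurred in at least 1 window of 7 of these 8 members, against 3.57% of 35116 windows of all genes. The letters were not in the OAS1 window. That window does hold GAAA, 1 base and GAAA, a spacing that this search did not cover. A GAS element, searched as TTCNNNGAA, occurred for 3 of the 8, against 7.66% of all windows. Both member counts are per gene, and IFI27, IFIT3 and MX1 had more than 1 window, whereas the shares are per window. The windows of the 3 members with the highest levels, and of IFIT3, are printed 5′ to 3′ along the gene, with ISRE cores in capitals. They are chr11:320811-321110 (minus strand) for IFITM3, chr1:1013247-1013546 (plus strand) for ISG15, chr1:27672143-27672442 (minus strand) for IFI6 and chr10:89327747-89328046 (plus strand), the first of 2 windows, for IFIT3.
IFITM3: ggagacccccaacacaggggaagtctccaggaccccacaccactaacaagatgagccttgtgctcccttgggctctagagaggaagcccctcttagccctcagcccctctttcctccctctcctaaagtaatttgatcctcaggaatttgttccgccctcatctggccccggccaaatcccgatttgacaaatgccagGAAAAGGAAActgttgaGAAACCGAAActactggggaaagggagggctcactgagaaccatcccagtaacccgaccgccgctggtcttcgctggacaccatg
ISG15: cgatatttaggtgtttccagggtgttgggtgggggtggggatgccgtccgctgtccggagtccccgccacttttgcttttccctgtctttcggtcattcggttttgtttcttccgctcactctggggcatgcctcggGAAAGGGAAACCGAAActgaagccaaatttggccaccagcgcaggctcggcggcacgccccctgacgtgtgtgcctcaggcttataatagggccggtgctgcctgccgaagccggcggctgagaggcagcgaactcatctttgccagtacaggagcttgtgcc
IFI6: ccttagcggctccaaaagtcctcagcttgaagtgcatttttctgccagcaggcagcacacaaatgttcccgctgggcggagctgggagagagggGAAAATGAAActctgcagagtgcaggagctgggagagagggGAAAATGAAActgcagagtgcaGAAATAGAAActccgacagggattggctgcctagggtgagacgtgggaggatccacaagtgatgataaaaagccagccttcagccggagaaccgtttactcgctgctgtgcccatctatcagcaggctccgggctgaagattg
IFIT3: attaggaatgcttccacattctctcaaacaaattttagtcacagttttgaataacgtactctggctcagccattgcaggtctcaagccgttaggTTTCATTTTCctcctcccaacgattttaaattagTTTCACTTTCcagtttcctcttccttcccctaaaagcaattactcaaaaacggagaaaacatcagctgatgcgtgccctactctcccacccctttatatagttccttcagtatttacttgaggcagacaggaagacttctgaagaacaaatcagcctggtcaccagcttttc
Relative to the start site, the cores of IFITM3 began at -52 and -35, and those of ISG15 began at -113 and -107 and shared bases. IFI6 had cores at -156, -115 and -93, and IFIT3 at -156 and -122. A match describes these letters and is not a measured binding site.

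Depth recovered from the values was 18433000 to 23741000 fragments per library. The targeted gene ZMAT2 had 15.2, 12.8 and 13.2 FPKM in shZMAT2-1 and 22.1, 20.3 and 20.8 FPKM in shZMAT2-2, against 37.5, 32.8 and 39.2 FPKM in control libraries. Fragments from the 13 mitochondrially encoded genes made up 7.70% to 16.4% of the shZMAT2-1 libraries, 14.5% to 27.0% of the shZMAT2-2 libraries and 7.86% to 43.2% of the control libraries. All 10 liver markers on the list passed the filter of at least 1 FPKM in at least 3 libraries, HNF4A, ALB and AFP among them. Of other cell types' markers, 2 of 7 fibroblast, 1 of 6 leukocyte and 1 of 4 endothelial genes in the table passed it. The leukocyte markers summed to 4.65 to 8.83 FPKM in shZMAT2-1, 3.96 to 7.07 FPKM in shZMAT2-2 and 2.51 to 5.72 FPKM in control libraries. CD14, which hepatocytes also make, was the one that passed. Their part in the results below was not tested, and in bulk RNA fewer cells of a type and less RNA per cell cannot be told apart.

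The 9 genes fell into 2 tiers of level. Only IFITM3, ISG15 and IFI6 passed the filter, and the other 6 lay between 0.0606 and 0.667 FPKM in every library. In control cells 25.8% of the 16964 protein-coding genes had a higher mean than IFITM3, 33.5% than ISG15 and 50.8% than IFI6. For the other 6 members this share was 66.4% to 76.7%. In shZMAT2-1 the order was ISG15, IFITM3, IFI6, IFIT3, MX1, IFIT1, IFIT2, IFI27 and OAS1. The libraries of ISG15 and IFITM3 overlapped there, as did those of MX1 and IFIT1 and those of IFIT2, IFI27 and OAS1. In shZMAT2-2 the order was IFITM3, ISG15, IFI6, IFIT3, IFIT1, MX1, IFI27, OAS1 and IFIT2. Overlapping neighbours there were IFIT3 with IFIT1, MX1 with IFI27, and IFI27 with OAS1. In control libraries the order was IFITM3, ISG15, IFI6, IFIT1, IFIT3, MX1, IFI27, OAS1 and IFIT2. There, libraries of neighbours were apart only between IFI6 and IFIT1 and between IFIT3 and MX1.

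**Figure D1:**
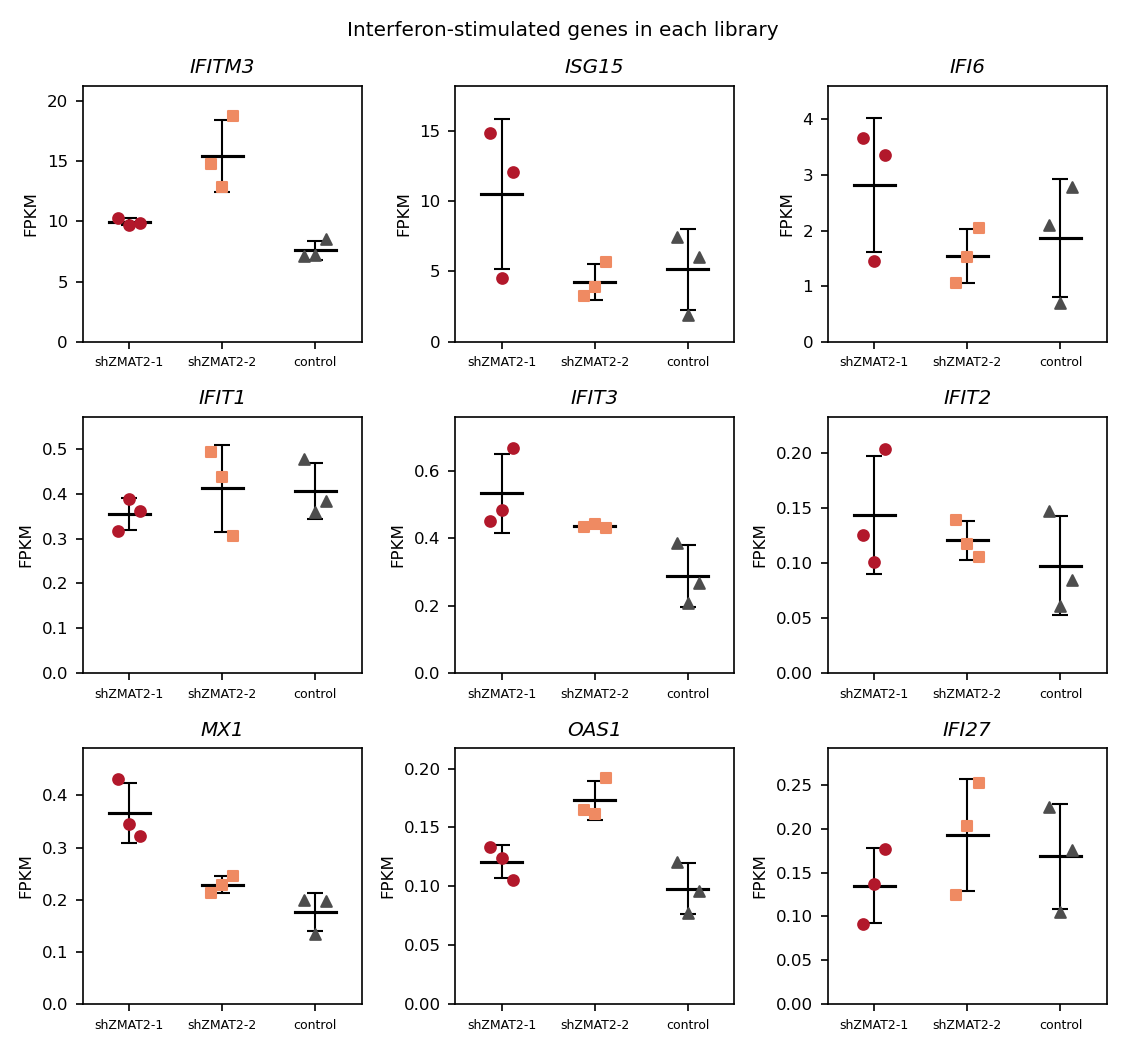
FPKM (y axis, from 0, a scale of its own in each panel) of the 9 genes in the 3 libraries of shZMAT2-1, shZMAT2-2 and control, with the mean and SD in black. IFITM3, IFIT3 and MX1 had all 6 knockdown libraries above the 3 control libraries, while ISG15 and IFI6 spread widely within each group.

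No member passed the test in any comparison. In limma's fit to log2(FPKM + 1) over 11245 tested genes, a gene was called at a Benjamini-Hochberg adjusted p under 0.05. The count was 0 of 3 tested members in shZMAT2-1 against control, where 0.08% of all tested genes were called. It was 0 of 3 in shZMAT2-2, against 0.587% of all tested genes, and 0 of 3 in the mean of both arms, against 0.542%. Between shZMAT2-2 and shZMAT2-1 no gene was called (0%). These all-gene shares rest on few libraries: in both arms 61 genes were called, but 0 without control replicate 1, 5 without control replicate 3 and 143 without control replicate 2. At an unadjusted p under 0.05, IFITM3 was the member that passed in shZMAT2-2, in the mean of both arms and between the arms, and none passed in shZMAT2-1. Among all genes 787, 779, 465 and 648 did so in those comparisons. Over all tested genes the median log2 fold change was 0.16 in shZMAT2-1, 0.05 in shZMAT2-2 and 0.10 in both arms, and with TPM it was 0.37, 0.04 and 0.20. Fold changes on this scale understate changes of low genes. The targeted gene ZMAT2 was itself called in shZMAT2-1 (log2 fold change -1.35, limma adjusted p = 0.028). In shZMAT2-2 it was not called (-0.76, limma adjusted p = 0.11), although its libraries there lay below all control libraries. The 2 arms share the control libraries, so their values are given side by side.

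IFITM3, a membrane protein of endosomes that blocks the fusion of entering viruses, had the highest level of the 9 in shZMAT2-2 and control cells, and higher values in every library of both arms than in any control library. This gene (ENSG00000142089, chromosome 11, 319676 to 329475) carries the pair of ISRE cores nearest to a start site among the promoters printed above. It had 10.3, 9.69 and 9.90 FPKM in shZMAT2-1 and 14.7, 12.9 and 18.7 FPKM in shZMAT2-2, against 7.08, 7.21 and 8.50 FPKM in control libraries. The 3 groups did not overlap, with control lowest and shZMAT2-2 highest. Group means were 9.95 ± 0.290, 15.4 ± 2.98 and 7.60 ± 0.783 FPKM in shZMAT2-1, shZMAT2-2 and control (SD, n = 3 each).

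The log2 fold change of IFITM3 was 0.92 in shZMAT2-2 (95% interval 0.52 to 1.33), which missed the threshold over all genes (limma adjusted p = 0.064). It was 0.35 in shZMAT2-1 (95% interval -0.05 to 0.76, limma adjusted p = 0.81) and 0.64 in the mean of both arms (95% interval 0.29 to 0.99, limma adjusted p = 0.16). Relative to the median of all genes these were 0.87, 0.20 and 0.54. The difference between shZMAT2-2 and shZMAT2-1 was 0.57 (95% interval 0.17 to 0.98, limma adjusted p = 0.66). The estimate in shZMAT2-2 stayed between 0.78 and 1.04 over 23 alternatives. Its limma adjusted p ran from 0.0026 to 0.99998 and was under 0.05 in 3 of them. In both arms the limma adjusted p ran from 0.0076 to 0.9996 over 22 alternatives and was under 0.05 in 2. Leaving out control replicate 2 brought the value in shZMAT2-2 past the threshold (0.89, limma adjusted p = 0.033), as for 2.35% of all genes. With the mitochondrial genes' summed level as a covariate it also passed (0.93, limma adjusted p = 0.0026), as did 9.84% of all genes, and in both arms the value was 0.64 (limma adjusted p = 0.0076, 9.75% of all genes).

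IFITM3 has close relatives beside it on chromosome 11, and reads may be split among them. IFITM2 had 1.42, 0.925 and 1.07 FPKM in shZMAT2-1 and 2.20, 1.47 and 3.48 FPKM in shZMAT2-2, against 1.59, 1.17 and 1.39 FPKM in control libraries. Its libraries thus overlapped between each arm and the control, with shZMAT2-2 replicate 3 highest for both genes. Between the arms IFITM2 was higher in shZMAT2-2 without overlap, as was IFITM3, against 4.67% of all genes. The log2 fold change of IFITM2 was 0.47 in shZMAT2-2 against control and 0.63 between the arms (limma adjusted p = 0.72 and 0.66). IFITM1 stayed at or below 0.202 FPKM in all 9 libraries and at 0 in 2 of them.

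ISG15, a ubiquitin-like protein that is joined to other proteins and also secreted, had the widest intervals of the 3 tested members. This gene (ENSG00000187608, chromosome 1, 1001138 to 1014540) had 14.8, 4.53 and 12.1 FPKM in shZMAT2-1 and 3.23, 3.89 and 5.66 FPKM in shZMAT2-2, against 7.46, 1.92 and 6.06 FPKM in control libraries. Both arms overlapped the control, and replicates 1 and 3 of shZMAT2-1 were above all other libraries. The means were 10.5 ± 5.33, 4.26 ± 1.26 and 5.15 ± 2.88 FPKM in shZMAT2-1, shZMAT2-2 and control (SD, n = 3 each). The log2 fold change was 0.91 in shZMAT2-1 (95% interval -0.12 to 1.93, limma adjusted p = 0.81) and -0.11 in shZMAT2-2 (95% interval -1.14 to 0.91, limma adjusted p = 1.0). The difference between shZMAT2-2 and shZMAT2-1 was -1.02 (95% interval -2.05 to 0.01, limma adjusted p = 0.66).

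IFI6, a small membrane protein known to oppose cell death and flavivirus replication, followed a like order. IFI6 (ENSG00000126709, chromosome 1, 27666064 to 27672212) had 3.65, 1.45 and 3.35 FPKM in shZMAT2-1 and 1.06, 1.53 and 2.04 FPKM in shZMAT2-2, against 2.10, 0.701 and 2.78 FPKM in control libraries. As for ISG15, replicates 1 and 3 of shZMAT2-1 were the highest and control replicate 2 the lowest. The log2 fold changes were 0.44 in shZMAT2-1 and -0.11 in shZMAT2-2 (limma adjusted p = 0.81 and 1.0). The value for shZMAT2-1 was 0.10 without control replicate 2 and 0.73 without shZMAT2-1 replicate 2.

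In each of the 3 groups the library with the highest mitochondrial share had the lowest level of both ISG15 and IFI6. These were shZMAT2-1 replicate 2 (16.4% mitochondrial), shZMAT2-2 replicate 1 (27.0%) and control replicate 2 (43.2%). Among the other libraries of a group the order was not kept: in shZMAT2-2 both genes were higher at 16.6% than at 14.5%. Being lowest in the library of highest share in all 3 groups held for 45.2% of the 11245 tested genes, and not for IFITM3, which was lowest in such a library in 1 of 3 groups. Among libraries of 7.70% to 8.28%, ISG15 had 14.8 and 12.1 FPKM in shZMAT2-1, against 7.46 and 6.06 FPKM in the control. IFI6 had 3.65 and 3.35 FPKM there in shZMAT2-1, against 2.10 and 2.78 FPKM in the control. Among libraries of 14.5% to 16.6%, ISG15 had 3.89 and 5.66 FPKM in shZMAT2-2, against 4.53 FPKM in shZMAT2-1. IFI6 had 1.53 and 2.04 FPKM there in shZMAT2-2, against 1.45 FPKM in shZMAT2-1. Both comparisons in this range rest on 1 shZMAT2-1 library, and the part of the share in these levels was not tested. No control library had a share in that range.

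Leaving out the library of highest share in each group was chosen after seeing the data. ISG15 then passed in shZMAT2-1 (0.90, limma adjusted p = 0.028), in a comparison where 8.6% of all genes did. IFITM3 passed in shZMAT2-2 (0.92, limma adjusted p = 0.0064, 32.4% of all genes) and in both arms (0.63, limma adjusted p = 0.035, 11.5% of all genes). Between shZMAT2-2 and shZMAT2-1 all 3 tested members passed, as did 42.5% of all genes, with 0.58 for IFITM3, -1.33 for ISG15 and -0.70 for IFI6 (limma adjusted p = 0.027, 0.0013 and 0.0066). In shZMAT2-2 the remaining libraries had shares of 14.5% and 16.6%, against 8.25% and 7.70% in shZMAT2-1 and 7.86% and 8.28% in the control, so arm and share cannot be told apart in comparisons with shZMAT2-2. The direction of ISG15 and IFI6 in the mean of both arms turned when control replicate 2 alone was left out. The values were 0.40 and 0.16 with all libraries and -0.07 and -0.17 without that one. The sign was kept in 21 of 22 alternatives for ISG15 and in 20 of 21 for IFI6. Leaving out the library of highest share in each group, control replicate 2 among them, gave 0.23 for ISG15. In shZMAT2-1 the value of ISG15 was 0.44 without control replicate 2 alone and 0.91 with it.

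**Figure D2:**
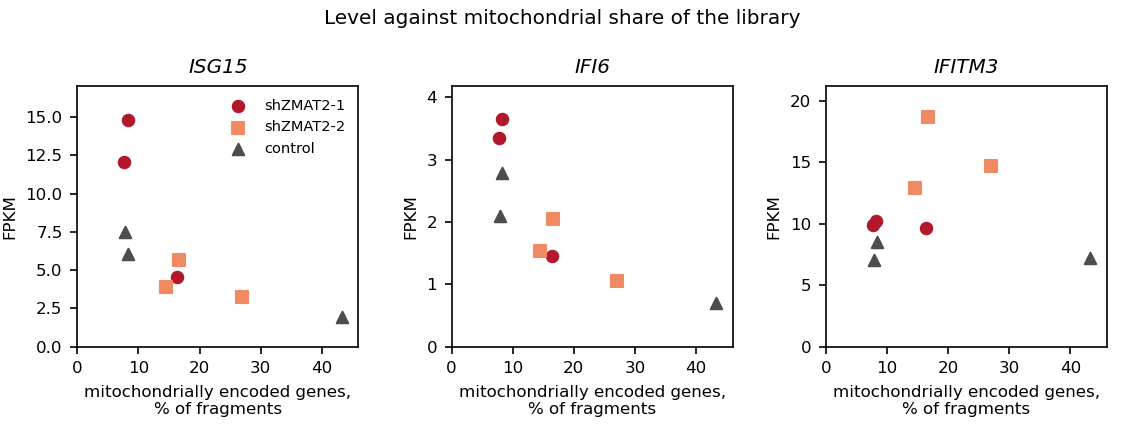
FPKM (y axis, from 0) of ISG15, IFI6 and IFITM3 against the percentage of fragments from mitochondrially encoded genes (x axis), 1 point per library, with shapes and colours for shZMAT2-1, shZMAT2-2 and control. ISG15 and IFI6 were lowest in the control library at 43.2%, while the 3 shZMAT2-2 libraries had the highest IFITM3 levels at 14.5% to 27.0%.

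IFIT1, IFIT2 and IFIT3 are neighbours on chromosome 10 whose proteins bind viral RNA and each other. IFIT3 (ENSG00000119917, chromosome 10, 89327307 to 89377473), which stabilises IFIT1 in their complex, had 0.450, 0.483 and 0.667 FPKM in shZMAT2-1 and 0.433, 0.441 and 0.431 FPKM in shZMAT2-2, against 0.387, 0.207 and 0.267 FPKM in control libraries. All 6 knockdown libraries were above the control ones, and the means in shZMAT2-1 and shZMAT2-2 were 1.86 and 1.52 times the control mean. These levels stood on 24 to 69 fragments per library.

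IFIT1, which recognises RNA whose cap lacks methylation, showed no such order. IFIT1 had 0.318, 0.388 and 0.361 FPKM in shZMAT2-1 and 0.494, 0.438 and 0.305 FPKM in shZMAT2-2, against 0.478, 0.360 and 0.383 FPKM in control libraries, so both arms overlapped the control. IFIT2, a partner of both, lay between 0.0606 and 0.204 FPKM, on 6 to 18 fragments per library, and its groups overlapped too. The neighbour IFIT5 had 0.807 to 0.931 FPKM in shZMAT2-1, 0.818 to 1.01 FPKM in shZMAT2-2 and 0.621 to 1.01 FPKM in control libraries.

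MX1, a dynamin-like GTPase that traps viral nucleoproteins, was highest in shZMAT2-1. MX1 (ENSG00000157601, chromosome 21, 41420020 to 41470071) had 0.431, 0.345 and 0.321 FPKM in shZMAT2-1 and 0.213, 0.227 and 0.245 FPKM in shZMAT2-2, against 0.199, 0.134 and 0.197 FPKM in control libraries. The 3 groups did not overlap, and the gap between shZMAT2-2 and control was 0.213 against 0.199 FPKM at its narrowest. The means in shZMAT2-1 and shZMAT2-2 were 2.07 and 1.29 times the control mean, on 55 to 143 fragments per library. Its neighbour MX2, which acts on nuclear import of retroviruses, was the more abundant of the pair, at 8.56 to 10.3 FPKM in shZMAT2-1, 8.68 to 10.5 FPKM in shZMAT2-2 and 8.64 to 11.7 FPKM in control libraries. The log2 fold changes of MX2 were -0.15 in shZMAT2-1 and -0.10 in shZMAT2-2 (limma adjusted p = 0.81 and 1.0).

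OAS1, an enzyme that double-stranded RNA activates to make an antiviral messenger, was highest in shZMAT2-2. OAS1 (ENSG00000089127, chromosome 12, 112905856 to 112933219) had 0.133, 0.124 and 0.105 FPKM in shZMAT2-1 and 0.165, 0.162 and 0.192 FPKM in shZMAT2-2, against 0.121, 0.0772 and 0.0958 FPKM in control libraries. The shZMAT2-2 libraries were above the 6 others, and shZMAT2-1 overlapped the control. The means in shZMAT2-1 and shZMAT2-2 were 1.24 and 1.77 times the control mean, on 23 to 55 fragments per library.

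IFI27, a small membrane protein related to IFI6, was not ordered by group. IFI27 (ENSG00000165949, chromosome 14, 94104836 to 94116695) had 0.0916, 0.137 and 0.177 FPKM in shZMAT2-1 and 0.125, 0.203 and 0.252 FPKM in shZMAT2-2, against 0.225, 0.106 and 0.176 FPKM in control libraries, on 7 to 23 fragments per library. Its neighbour IFI27L1 lay at 0.723 to 2.12 FPKM in shZMAT2-1, 0.621 to 1.52 FPKM in shZMAT2-2 and 0.650 to 1.83 FPKM in control libraries, with the groups overlapping.

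Counted over the 9 members, 3 had all libraries of both arms above the control (IFIT3, MX1 and IFITM3) and none had them below. Among the 27421 genes the shares were 2.84% above and 1.08% below, and among those that passed the filter 4.69% and 0.685%. For shZMAT2-1 alone 3 of 9 lay above and 0 below, against 6.36% and 2.75% of all genes. For shZMAT2-2 alone 4 of 9 lay above, OAS1 included, and 0 below, against 8.18% and 3.05%. Between the arms OAS1 and IFITM3 were higher in shZMAT2-2 without overlap and IFIT3 and MX1 lower, against 4.67% and 6.87% of all genes. These counts are a description, since the members were chosen with results of these data known. Fitted with no filter on low values, 8 of 27421 genes were called in shZMAT2-1, 74 in shZMAT2-2, 61 in both arms and 0 between the arms. None of the 9 members was among them, the smallest limma adjusted p being 0.070 for IFITM3 in shZMAT2-2. For MX1 it was 0.28 in shZMAT2-1 and for OAS1 0.30 in shZMAT2-2.

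The rest of the pathway was read from lists of ligands, receptors, sensors, ISG15 enzymes and further interferon-stimulated genes. Of 64 such genes in the table, 32 passed the filter, and none was called in the mean of both arms. At an unadjusted p under 0.05 there were 5 of 32, or 15.6%, against 6.93% of all tested genes. In both arms 71.9% of the 32 had a higher estimate, against 71.8% of all tested genes, with a median log2 fold change of 0.09 against 0.10. Without rescaling, the single arms stood on opposite sides of their backgrounds. In shZMAT2-1 the share was 62.5%, against 72.9% of all tested genes (median 0.04 against 0.16). In shZMAT2-2 it was 71.9%, against 58.4% (median 0.15 against 0.05). With the 3 scalings other than TPM, 47.8% to 52.7% of all tested genes had a higher estimate in both arms, and with TPM 83.4%. In shZMAT2-1 the backgrounds were 49.7% to 52.5%, and 88.7% with TPM. In shZMAT2-2 they were 49% to 54.3%, and 56.3% with TPM. The shares of pathway genes, here and for the single lists below, were not recomputed with these scalings. Over all 64 genes, 16 or 25.0% had their shZMAT2-2 libraries above the control without overlap, against 8.18% of all genes. For shZMAT2-1 it was 8 or 12.5%, against 6.36%. Libraries lay below the control without overlap for 3 or 4.69% in shZMAT2-2, against 3.05% of all genes. In shZMAT2-1 they did so for 2 or 3.12%, against 2.75%. None of the 20 ligand genes on the list was analysed here.

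Of receptor and signalling genes 6 of 9 passed the filter, and 5 of the 6 had a higher estimate in both arms (6 in shZMAT2-1, 3 in shZMAT2-2). JAK1 had 8.69 to 12.9 FPKM in shZMAT2-1 and 10.5 to 13.3 FPKM in shZMAT2-2, against 6.02 to 9.87 FPKM in control libraries. Its shZMAT2-2 libraries lay above the control without overlap. The log2 fold changes in both arms were 0.37 for JAK1, 0.16 for IFNAR1, 0.07 for TYK2, 0.05 for STAT2 and -0.05 for IFNLR1, the receptor chain of lambda interferons, with limma adjusted p values of 0.87 to 1.0. IRF9, the DNA-binding partner of STAT2, was under the filter, at 0.197 to 0.371 FPKM in shZMAT2-1, 0.345 to 0.366 FPKM in shZMAT2-2 and 0.108 to 0.205 FPKM in control libraries. IFNAR2 was under it too, at 0.303 to 0.526 FPKM over all libraries.

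Of the sensors of nucleic acid and their adaptors, 5 of 12 in the table passed the filter. IKBKE, a kinase that activates interferon regulatory factors, had 3.58, 2.55 and 2.64 FPKM in shZMAT2-1 and 1.80, 2.60 and 2.93 FPKM in shZMAT2-2, against 1.94, 1.06 and 1.97 FPKM in control libraries (log2 fold change in both arms 0.47, limma adjusted p = 0.53). The adaptor TICAM1 had a log2 fold change in both arms of 0.30, the kinase TBK1 of 0.07 and the mitochondrial adaptor MAVS of -0.13 (limma adjusted p = 1.0 each). Sensors themselves were low. RIGI stayed at or below 0.0845 FPKM in every library, with all 6 knockdown libraries below the control, and TLR3 at or below 0.118 FPKM. IFIH1, itself interferon-inducible, had 0.478 to 0.552 FPKM in shZMAT2-1 and 0.600 to 0.708 FPKM in shZMAT2-2, against 0.218 to 0.378 FPKM in control libraries, without overlap.

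ISG15 conjugation and feedback genes numbered 8, of which 4 passed the filter. UBE2L6, the enzyme that carries ISG15 to its targets, had 12.5, 9.0 and 11.5 FPKM in shZMAT2-1 and 6.32, 6.84 and 7.63 FPKM in shZMAT2-2, against 11.9, 8.69 and 13.7 FPKM in control libraries. The shZMAT2-2 libraries were below all others (log2 fold change -0.63, limma adjusted p = 0.41). UBA7, which activates ISG15, was under the filter, at 0.365 to 0.560 FPKM in shZMAT2-1 and 0.284 to 0.400 FPKM in shZMAT2-2, against 0.0673 to 0.226 FPKM in control libraries. SOCS1, which restrains the receptor's kinases, had a log2 fold change in both arms of -0.53 (limma adjusted p = 0.70). It was -0.86 and passed when control replicate 2 was left out (limma adjusted p = 0.038), as for 1.28% of all genes. USP18, which removes ISG15 and has a near-identical copy, had 0.21, and PIAS1 had 0.00 (limma adjusted p = 1.0 each).

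Among 36 further interferon-stimulated genes in the table, 17 passed the filter and none was called. Estimates in both arms were higher for 14 of 17, or 82.4%, with a median of 0.13, against 71.8% and 0.10 for all tested genes. In shZMAT2-1 they were higher for 10 of 17, or 58.8% (median 0.01), against 72.9% and 0.16. In shZMAT2-2 they were higher for 15 of 17, or 88.2% (median 0.17), against 58.4% and 0.05. LGALS3BP, a secreted galectin-binding glycoprotein, had 5.01, 3.99 and 4.75 FPKM in shZMAT2-1 and 5.55, 6.50 and 8.85 FPKM in shZMAT2-2, against 2.87, 1.80 and 3.24 FPKM in control libraries. Its 3 groups did not overlap, and it stood in the same order as IFITM3 (log2 fold change in both arms 0.88, limma adjusted p = 0.090).

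NMI, an interferon-inducible protein that binds other signalling proteins, had 4.60, 5.49 and 5.34 FPKM in shZMAT2-1 and 4.98, 4.85 and 4.72 FPKM in shZMAT2-2, against 2.80, 2.77 and 3.41 FPKM in control libraries. Its knockdown libraries lay above the control (log2 fold change in both arms 0.59, limma adjusted p = 0.11). PARP12, an ADP-ribosyltransferase, had a log2 fold change in both arms of 0.53 (limma adjusted p = 0.56). IFI35, the binding partner of NMI, had 0.46 (limma adjusted p = 0.87). It was highest in shZMAT2-1 replicates 1 and 3, at 3.71 and 3.25 FPKM, the libraries in which ISG15 was highest. RSAD2, BST2, XAF1 and IFI44L, strongly inducible in many cell types, were at 0 in at least 7 of the 9 libraries. PARP12, LGALS3BP and NMI were the tested genes of the lists with all 6 knockdown libraries above the control, 3 of 32 or 9.38%, against 4.69% of all tested genes. With IFIH1, TLR3, UBA7 and DDX60, which did not pass the filter, this made 7 of 64 or 10.9%, against 2.84% of all genes. All 6 lay below the control for 1 of 64 (RIGI) or 1.56%, against 1.08% of all genes. Of the 32 tested genes 0 did so, against 0.685% of all tested genes.

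**Figure D3:**
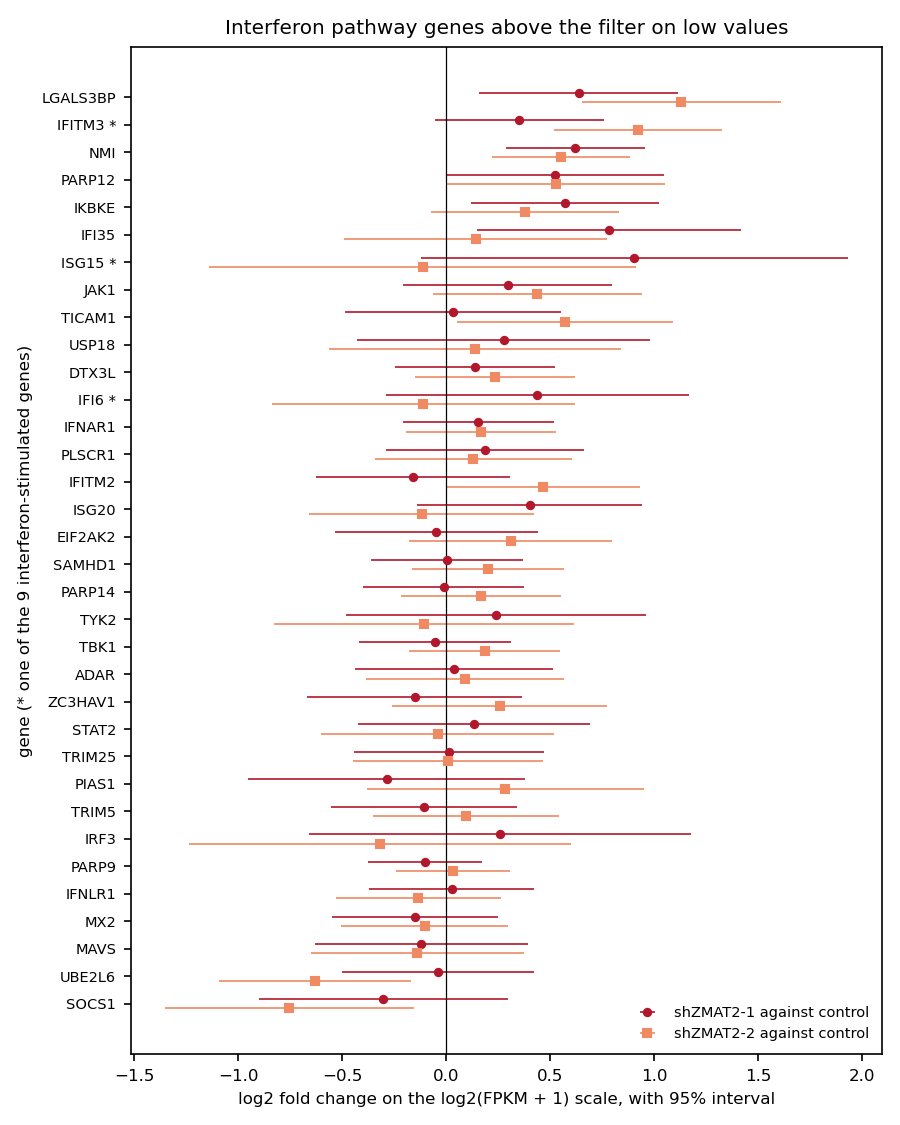
Log2 fold change on the log2(FPKM + 1) scale (x axis, with 95% interval from limma) of shZMAT2-1 (circles) and shZMAT2-2 (squares) against control, for the 3 tested members (starred) and pathway genes that passed the filter (1 not reported is left out), ordered by the mean of both arms. LGALS3BP and IFITM3 are at the top, SOCS1 and UBE2L6 at the bottom, and no gene shown passed the threshold over all genes.

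The protein-coding genes most like the mean of the tested members over the 9 libraries were PIM1, RNF5, RNPEPL1, SSU72 and HGH1. Likeness was Pearson's r with the mean of the 3 members' standardised log2(FPKM + 1), among 10226 candidates outside the pathway lists. It was 0.99 for PIM1, a kinase, and 0.98 for the other 4. The points share library, depth and mitochondrial share, so r is a description. The shZMAT2-2 mean over the shZMAT2-1 mean was 1.55 for IFITM3, but 0.41 for ISG15 and 0.55 for IFI6. For the named genes this ratio was 0.76 to 0.90, so between the arms they did not follow IFITM3. PIM1 had 3.62, 1.70 and 3.31 FPKM in shZMAT2-1 and 1.65, 2.04 and 2.91 FPKM in shZMAT2-2, against 1.67, 0.447 and 2.35 FPKM in control libraries.

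**Figure D4:**
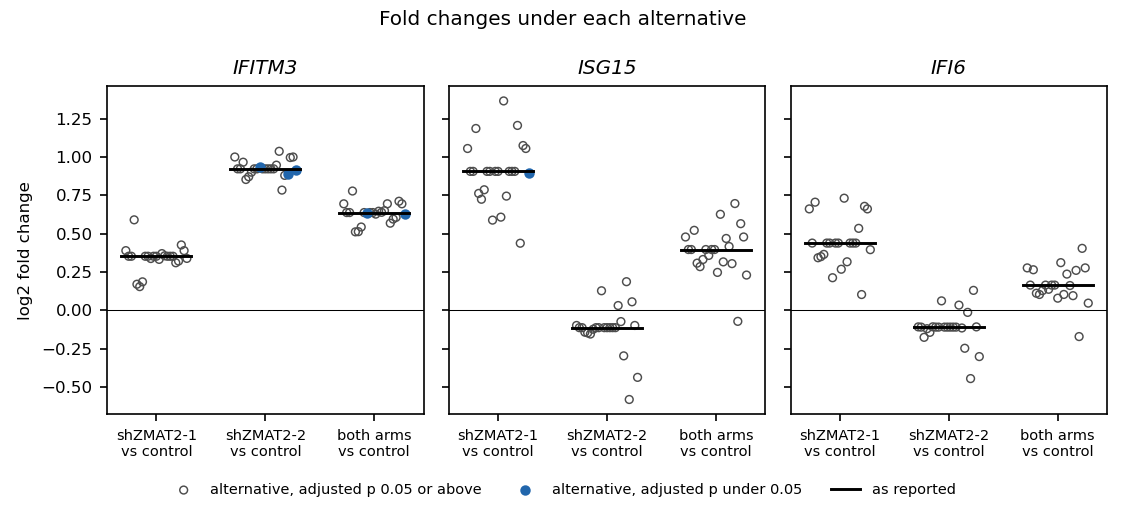
Log2 fold changes (y axis) of IFITM3, ISG15 and IFI6 in shZMAT2-1, shZMAT2-2 and both arms against control, as reported (bar) and under each alternative (circles, filled where the limma adjusted p was under 0.05). IFITM3 stayed above 0 throughout, at 0.15 to 0.59 in shZMAT2-1 and 0.78 to 1.04 in shZMAT2-2, while ISG15 and IFI6 crossed 0 in shZMAT2-2 and in both arms.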

How the data were processed

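Poly(A) RNA of 9 Huh7 samples was sequenced from a strand-marking library, per the labels' protocols. The authors deposited FPKM per gene. The submitters' processing notes list HISAT, featureCounts and DESeq2 and no versions. For the genome build, the sources used here give no name, and positions are the table's own. Depth was recovered from the FPKM of 1542 single-exon genes, all of whose low values came out whole within 0.1 fragments. A gene's fragments were recovered in the same way, by the shortest length that made all 9 of its values whole within 0.02 fragments. The filter kept genes that reached 1 FPKM in 3 or more libraries. Their log2(FPKM + 1) was fitted in limma 3.58.1 (R 4.3.3) with a trended prior and a term for group, on all 9 libraries together. P-values are two-sided, with Benjamini-Hochberg adjustment over 11245 genes. The fit was tested on simulated data with errors drawn separately for each gene, which cannot show how it treats spread that genes share. The alternatives were a pseudocount of 0.1, no filter or one of 5 FPKM, TPM and 3 other scalings, the replicate number as a block, each library left out in turn, only the groups compared, a mitochondrial covariate, no trend, and protein-coding genes only. Members, gene lists and tests were chosen with earlier results of these data known. Named are the members, ZMAT2, expressed paralogues, tested receptor and signalling genes, up to 4 genes of each other list by smallest p, and the 5 genes of most similar pattern. One signalling gene that this rule names is not reported here. Other genes were named after their values were seen: IFITM1, IFIT5, IRF9, IFNAR2, RIGI, TLR3, IFIH1, UBA7, RSAD2, BST2, XAF1, IFI44L and DDX60. Python 3.11.15, pandas 2.3.3 and matplotlib 3.10.9 did the rest.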

Additional observations from a re-analysis of the deposited data

How the results depend on the processing

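The count of called members was 0 in each comparison and stayed 0 under the alternatives not named here. Leaving out the library of highest mitochondrial share in each group, chosen after seeing the data, gave 1 member in shZMAT2-1 (ISG15), 1 in shZMAT2-2, 1 in both arms (IFITM3 in each) and 3 between the arms, where 42.5% of all genes passed. The mitochondrial covariate gave 1 member in shZMAT2-2 and 1 in both arms, IFITM3. Leaving out 1 library gave 0 to 1 members in shZMAT2-2, the 1 being IFITM3 without control replicate 2. Of 32 pathway genes tested, 0 were called in both arms. With median-of-ratios, quantile or nuclear scaling 1 (LGALS3BP) or 3.12% was called, against 1.81%, 1.86% and 1.76% of all genes. Leaving out 1 library gave 0 to 1, the 1 being SOCS1 without control replicate 2, against 1.28% of all genes. With the mitochondrial covariate 7 or 21.9% were called, against 9.75% of all genes, and 7 without the libraries of highest share, against 11.5% of all genes. The covariate's 7 were PARP12, LGALS3BP, NMI, TICAM1 and IKBKE higher and UBE2L6 and SOCS1 lower. With the covariate the log2 fold change in shZMAT2-2 turned to 0.13 for ISG15 and to 0.061 for IFI6. Leaving out 1 library, ISG15 ran from -0.58 to 0.19 in shZMAT2-2 and from -0.072 (without control replicate 2) to 0.70 in both arms, and IFI6 from -0.45 to 0.13 and from -0.17 to 0.40. The causes were not tested. All-gene calls in both arms numbered 61 and were 1 with TPM, 25 with the filter of 5 FPKM, 198 to 209 with the other scalings, 0 to 143 without 1 library, 1096 with the covariate and 1266 without the libraries of highest share. When the third group was kept out of the fit, 0 genes were called in shZMAT2-1 and 0 in shZMAT2-2, against 9 and 66 as reported. Whether replicate numbers pair the libraries could not be settled. Deviations from group means correlated at -0.76 to 0.78 for same-numbered libraries and at -0.77 to 0.81 for others, nearly the same range. With the replicate block 0 members were called in each comparison, and 58 genes in both arms. With 7 to 23 fragments per library in IFI27 and 6 to 18 in IFIT2, small differences in these genes were not detectable at this depth.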

Other observations

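The length behind each member's FPKM was read from the values, and for 4 of the 9 it was well above the summed exons of GENCODE 29. It was 13022 bases for OAS1 against 4947, 17984 for MX1 against 8616, 5067 for IFIT3 against 2640 and 2844 for IFITM3 against 1348. For ISG15 it was 867 against 941, and for IFI6 936 against 865. At the GENCODE 29 length the same fragments give 14.9 to 39.5 FPKM for IFITM3, 0.397 to 1.28 for IFIT3, 0.279 to 0.900 for MX1 and 0.203 to 0.505 for OAS1. The order of levels between genes therefore depends on the length used. For the same fragments, an FPKM ratio between libraries of the same gene does not. The filter and fold changes of log2(FPKM + 1) do depend on the level. Whether another annotation would count other fragments, and so give other ratios, was not tested.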
